A study of Mus musculus with 2 samples.

Results

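The miR-130/miR-301 family comprised the mature miRNAs cut from 4 mouse hairpins, mir-130a, mir-130b, mir-301a and mir-301b. Members were chosen by name, as every arm of these hairpins that had a line in the deposited table, which gave 8 of 717 mature miRNAs. All 4 hairpins contributed a 3p and a 5p arm. The small RNA came from 2 libraries, each from BALB/c mice. Tumor-associated macrophages (TAMs) came from tumors of 4T1, a mouse mammary carcinoma cell line, injected into the mammary fat pad of female mice 8 weeks old and harvested 3 weeks later. Beads against CD11b collected them. This integrin is also found on monocytes, NK cells and neutrophils, which this library can therefore hold. Macrophages from the spleen of naïve mice (SMs), without tumor, were the control. The sources used here do not say how SMs were selected or how many mice went into each library.

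A miRNA hairpin is cut into a duplex of a 5p and a 3p arm, and usually only one of these, the guide, is kept by Argonaute while the other, the passenger, is degraded. The guide recognizes its target mRNAs mainly through its seed, bases 2 to 8 from the 5′ end, so miRNAs with the same seed share most predicted targets. In the miR-130/miR-301 family the 3p arm is the usual guide. The family is known for repressing Pparg, a nuclear receptor that promotes lipid handling and alternative activation in macrophages, and miR-130a is also known from blood cell progenitors and endothelial cells.

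The 3p arms are shown first because the comparison of TAMs with SMs turns on a shared seed, in capitals, that 4 different guides carry. The sequences are those of the deposited table, 5′ to 3′, and the prefix mmu-, for mouse, is left out elsewhere.
mmu-miR-130a-3p: cAGTGCAAtgttaaaagggcat
mmu-miR-130b-3p: cAGTGCAAtgatgaaagggcat
mmu-miR-301a-3p: cAGTGCAAtagtattgtcaaagc
mmu-miR-301b-3p: cAGTGCAAtggtattgtcaaagc
The first 9 bases were the same in all 4. Beyond them the family fell into pairs. Counted from 1 at the 5′ end, miR-130b-3p differed from miR-130a-3p by T11A and A13G, and miR-301b-3p differed from miR-301a-3p by A10G alone. miR-130a-3p and miR-301a-3p differed at 10 of 22 positions. The table header says that variants of ±2 bp were added to the counts, and how reads that could match either of a near-identical pair were divided is not stated. Counts within each pair are therefore uncertain and are also given as sums. Elsewhere in these data let-7a-1-3p and let-7c-2-3p had equal counts, 137 in TAMs and 241 in SMs. A read may thus have been assigned to more than 1 miRNA, and a sum would then count it more than once.

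The 5p arms, the usual passengers, fell into other seed groups. They are shown because miR-130b-5p was the only 5p arm of the family to reach 10 TPM, the authors' read count scaled by a library total, in either library, and because its seed differs from those of the rest.
mmu-miR-130a-5p: gCTCTTTTcacattgtgctact
mmu-miR-130b-5p: aCTCTTTCcctgttgcactact
mmu-miR-301a-5p: gCTCTGACtttattgcactact
mmu-miR-301b-5p: gCTCTGACtaggttgcactact
miR-301a-5p and miR-301b-5p shared a seed, while miR-130a-5p and miR-130b-5p each had their own.

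The hairpins lie at 3 places in the genome (RefSeq, GRCm38.p6; gene overlaps from GENCODE M21 on the same assembly). Mir130a lies on the minus strand at chr2:84741115-84741178 and overlaps no other annotated gene. The mir-301a hairpin, Mir301 in RefSeq, lies on the plus strand at chr11:87113004-87113089, in an intron of Ska2, which encodes a protein of the spindle and kinetochore and runs on the same strand. Mir130b, at chr16:17124061-17124142, and Mir301b, at chr16:17124400-17124496, form a cluster with 257 bases between the hairpins, both on the minus strand and in an intron of the protein-coding gene 2610318N02Rik. The Mir130b hairpin is printed whole because the counts of its arms differed in direction between TAMs and SMs. The capitals mark the 5p arm and then the 3p arm.
Mir130b: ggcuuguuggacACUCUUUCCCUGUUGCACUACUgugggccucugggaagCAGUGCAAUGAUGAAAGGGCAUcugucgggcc
Of the 8 members, 7 had a mature entry in RefSeq, and for all 7 the letters were those of the deposited table.

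TPM values were read counts over library totals of 13324721 for TAMs and 15422872 for SMs, without a correction for length. The summed counts of known miRNAs came to 55.0% of that total in TAMs and 65.5% in SMs. These are parts of the reads only if no read was assigned to more than 1 miRNA. Each group was 1 library, so differences could not be set against replicates and were not tested. The 95% intervals are exact and cover counting error only, and PCR copies, which are not separate molecules, make even that error look smaller than it is. A fold threshold of 2 on log2(TPM + 1), among miRNAs with at least 10 TPM in either library, was used to count miRNAs; the added 1 TPM understates changes of low miRNAs. The median of this difference over the 264 miRNAs that passed the filter was −0.36, a ratio of 0.782, below 1. Not all of these are independent, since miRNAs with equal counts, such as let-7a-1-3p and let-7c-2-3p, are among them. Fewer cells of a type and less of a miRNA per cell cannot be told apart in such bulk libraries.

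As a pool of guides with a shared seed, the family had nearly the same summed TPM in both libraries. The 4 3p arms had 12527 reads in TAMs and 14253 in SMs. Their summed level was 940.1 TPM in TAMs against 924 TPM for SMs, and the ratio was 1.02 (95% interval 0.993 to 1.04). The direction of this small difference depended on the library total used: the ratio was 1.21 over the total of known miRNA reads and 0.919 when the 10 most abundant miRNAs of either library were left out of the total. The 8 arms together gave a ratio of 1.01 (0.988 to 1.04), since 5p arms contributed only 101 reads in TAMs and 191 in SMs. The sum joins guides with opposite differences. Without miR-130a-3p its ratio was 0.524, and without miR-301a-3p it was 3.14. Whether reads of different guides stand for equal numbers of molecules was not tested. The same limit holds for the shares, the ratios between guides and their order below.

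**Figure D1:**
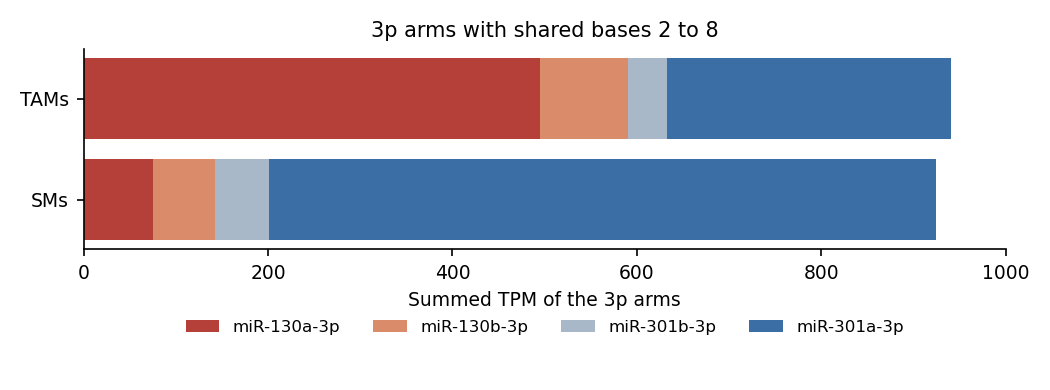
Level of the 4 3p arms that share bases 2 to 8, stacked, in TPM on a linear axis from 0, for the TAMs library and the SMs library. The bars end at 940.1 TPM and 924 TPM, while the largest block is miR-130a-3p in TAMs (495 TPM) and miR-301a-3p in SMs (723 TPM).

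Within that pool the leading member was exchanged. miR-130a-3p made up 52.7% of the pool's reads in TAMs (exact Clopper-Pearson interval 51.8 to 53.6%) and 8.17% in SMs (7.73 to 8.64%). miR-301a-3p went the other way, with 32.7% in TAMs (31.9 to 33.5%) and 78.2% in SMs (77.5 to 78.9%). The cluster of mir-130b and mir-301b held a small and similar part of the pool in both, 14.6% in TAMs and 13.6% in SMs. Shares within a library do not depend on the library total. On this scale the odds of a pool read being miR-130a-3p were 12.5 times higher in TAMs than in SMs (11.7 to 13.4), and the odds of its being miR-301a-3p were 7.39 times lower.

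miR-130a-3p, the guide of the lone locus on chromosome 2, was the member with the largest difference. TAMs had 6599 reads of it and SMs 1165, or 495 TPM against 75.5 TPM. The level in TAMs was 6.56 times that in SMs (6.16 to 6.98), and the miRNA stood at rank 66 by reads in TAMs and 125 in SMs. Of the 264 miRNAs, 150 (56.8%) differed by at least 2-fold, of which 64 (24.2% of all) were higher in TAMs, and 36 (13.6%) had a difference at least that of miR-130a-3p. The difference of miR-130a-3p thus lay within the upper range of all miRNAs, not at its end. Summed with miR-130b-3p, which differs from it at 2 bases, the ratio was 4.15 (3.96 to 4.36).

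miR-301a-3p, the guide from the Ska2 intron, was lower in TAMs. It had 4097 reads in TAMs and 11150 in SMs, or 307 TPM against 723 TPM. The level was 2.35-fold lower in TAMs (2.27 to 2.44), and its rank was 79 in TAMs and 55 in SMs. Over the total of known miRNA reads the ratio was 0.506, just short of 2-fold lower. A decrease of at least 2-fold was common in these libraries, in 86 of 264 miRNAs (32.6%), and 69 (26.1%) had a difference at or below that of miR-301a-3p. With miR-301b-3p added, from which it differs at 1 base, the ratio was 0.448 (0.433 to 0.463).

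The 2 guides of the cluster on chromosome 16 differed less from SMs, and in opposite directions. miR-130b-3p had 1263 reads in TAMs and 1026 in SMs, or 94.8 TPM against 66.5 TPM, a ratio of 1.42 (1.31 to 1.55). miR-301b-3p, its neighbor, had 568 reads and 912 reads, or 42.6 TPM against 59.1 TPM, a ratio of 0.721 (0.648 to 0.801). Both counting intervals lay on their own side of 1 with the authors' totals, and neither member reached 2-fold. Summed, the cluster came to 137 TPM in TAMs against 126 TPM in SMs, with a ratio of 1.09 (1.03 to 1.17) that was 0.987 without the 10 most abundant miRNAs in the total.

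Of the 5 members with at least 10 TPM in either library, 1 was at least 2-fold higher in TAMs, 1 was at least 2-fold lower and 3 were neither. Against the 24.2% higher and 32.6% lower of all 264 miRNAs, these counts of 5 members are too few to set the family apart. miR-130b-5p passed the filter only through SMs. The remaining 3 members, all 5p arms, were under 10 TPM in both libraries.

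**Figure D2:**
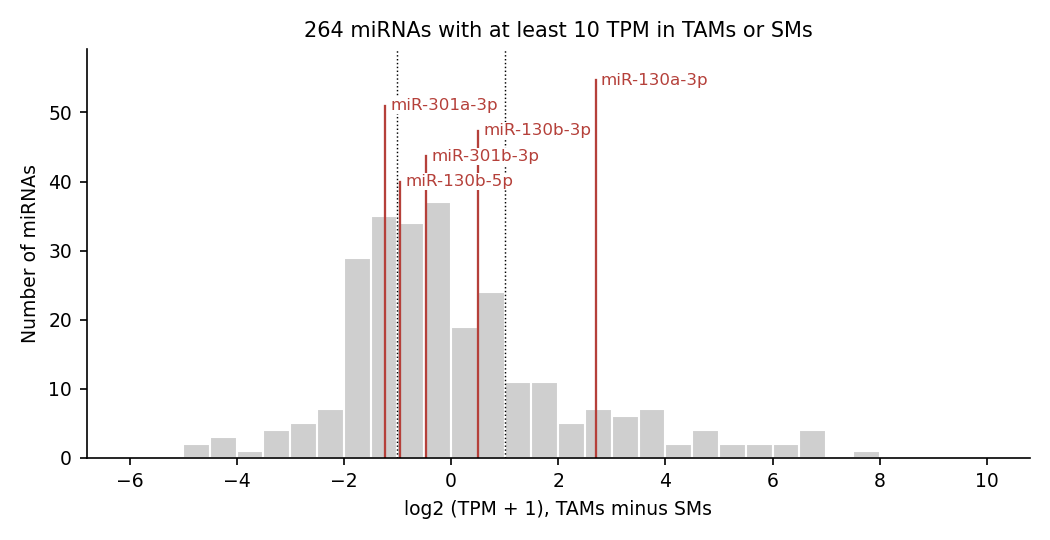
Histogram of the difference in log2(TPM + 1), TAMs minus SMs, over 264 miRNAs that reached 10 TPM in a library (grey; y axis, number of miRNAs), with 5 family members as red lines and the 2-fold thresholds dotted. miR-130a-3p stands at 2.70 and miR-301a-3p at −1.23, while miR-130b-3p (0.50), miR-301b-3p (−0.46) and miR-130b-5p (−0.95) lie between the thresholds.

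Ratios between guides within a library showed the exchange directly, again without reference to any total. In TAMs miR-130a-3p had 1.61 reads for each read of miR-301a-3p (1.55 to 1.68). In SMs the order was reversed, with 9.57 reads of miR-301a-3p for each of miR-130a-3p (9.01 to 10.2). The ratio of these ratios was 15.4 (14.3 to 16.6), the largest of the 6 pairs of guides. Against miR-130b-3p, its closest relative in sequence, miR-130a-3p was 5.22-fold more abundant in TAMs (4.92 to 5.55) and 1.14-fold in SMs (1.04 to 1.24). miR-301a-3p exceeded miR-301b-3p by 7.21-fold in TAMs (6.61 to 7.89) and by 12.2-fold in SMs (11.4 to 13.1), so the excess of the Ska2 guide over its near-copy was smaller in TAMs. The smallest shift of the 6 pairs was that of these near-copies, with a ratio of ratios of 1.69 in favor of SMs (1.51 to 1.90).

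The counted guides of the cluster differed in their ratio between the libraries. In TAMs there were 2.22 reads of miR-130b-3p for each of miR-301b-3p (2.01 to 2.46), and in SMs 1.13 (1.03 to 1.23). The difference was 1.98-fold (1.73 to 2.26). Each of these guides differed in the direction of its near-copy, miR-130a-3p or miR-301a-3p, and the part of reads divided between near-copies was not tested.

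The order of the guides by level was therefore miR-130a-3p, miR-301a-3p, miR-130b-3p and miR-301b-3p in TAMs, and miR-301a-3p, miR-130a-3p, miR-130b-3p and miR-301b-3p in SMs. In TAMs the counting intervals of neighbors in this order did not overlap. In SMs the last 3 were close, at 75.5, 66.5 and 59.1 TPM. Their exact Poisson intervals were 71.3 to 80.0 TPM for miR-130a-3p, 62.5 to 70.7 TPM for miR-130b-3p and 55.4 to 63.1 TPM for miR-301b-3p, so those of miR-130b-3p and miR-301b-3p overlapped.

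**Figure D3:**
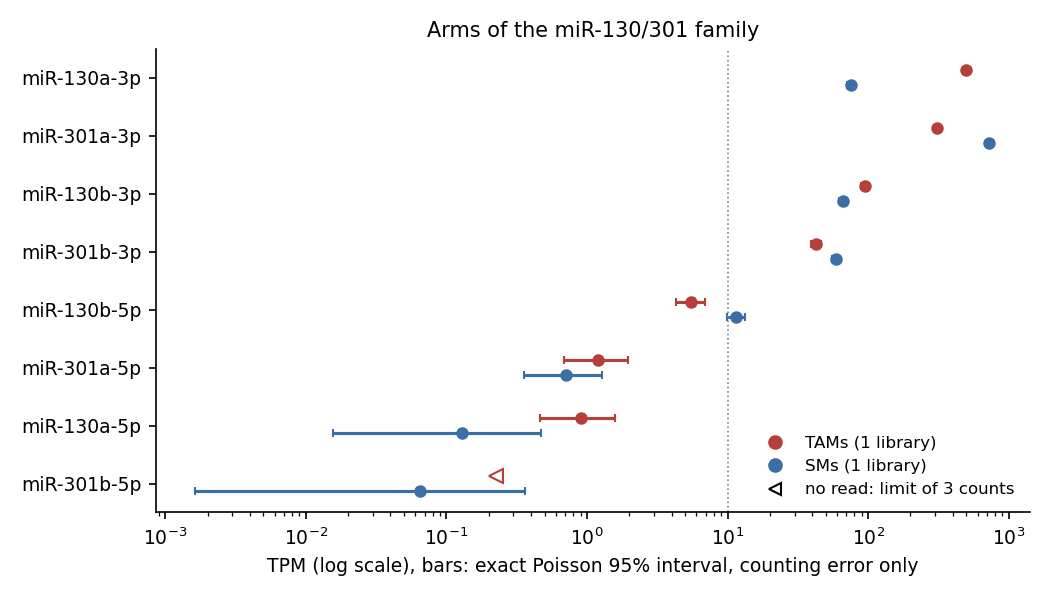
Level of the 8 arms in TPM on a log axis, TAMs in red and SMs in blue (1 library each), with exact Poisson 95% intervals for counting error, an open triangle at the level of 3 counts where no read was found, and a dotted line at the filter of 10 TPM. miR-130a-3p and miR-130b-3p are higher in TAMs, miR-301a-3p, miR-301b-3p and miR-130b-5p are higher in SMs, and the 3 lowest arms lie at or under 1.20 TPM.

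The passenger arms were scarce. miR-130a-5p had 12 reads in TAMs and 2 in SMs, or 0.901 TPM against 0.130 TPM, a ratio of 6.94 with a counting interval from 1.55 to 63.9. This ratio was close to the 6.56 of its 3p partner, and the 5p arm took 0.182% of the reads of the hairpin in TAMs (0.0938 to 0.317%) and 0.171% in SMs (0.0208 to 0.618%). miR-301a-5p had 16 reads in TAMs and 11 in SMs, or 1.20 TPM against 0.713 TPM, a ratio of 1.68 whose interval (0.734 to 4.01) included 1. Its share of the hairpin was 0.389% in TAMs (0.223 to 0.631%) and 0.0986% in SMs (0.0492 to 0.176%), beside a 3p arm that was lower in TAMs, and the reads of the 5p arm for each read of the 3p arm were 3.96-fold higher in TAMs with a wide interval (1.72 to 9.44). miR-301b-5p had no read in TAMs, which allows up to 0.225 TPM at a limit of 3 counts, and 1 read in SMs.

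mir-130b gave the most abundant passenger arm of the family, and its arms differed in direction. miR-130b-5p had 73 reads in TAMs and 177 in SMs, or 5.48 TPM against 11.5 TPM, a level 2.09-fold lower in TAMs (1.59 to 2.79), although miR-130b-3p was 1.42-fold higher. On the scale of TPM + 1 the decrease of miR-130b-5p was 1.93-fold, so it does not count among the miRNAs past 2-fold there. The 5p arm took 5.46% of the reads of the hairpin in TAMs (4.31 to 6.82%) and 14.7% in SMs (12.8 to 16.8%). Reads of the 3p arm for each read of the 5p arm were 17.3 in TAMs (13.7 to 22.2). In SMs they were 5.80 (4.94 to 6.84). This shift of 2.98-fold (2.23 to 4.02) does not depend on a library total. It does depend on how reads were divided between miR-130b-3p and its near-copy miR-130a-3p, as does the direction of the 3p arm. miR-130a-3p had 6599 reads in TAMs and 1165 in SMs, and the part of reads so divided was not tested.

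Arms of a shared hairpin often differed in these libraries. Of 82 hairpins with at least 100 reads for each arm over both libraries, a minimum chosen after the values were seen, 24 (29.3%) had arms whose log2 ratios differed by at least 1. mir-130b, with a difference of 1.58, was the eighth largest of the 82. These hairpins are not all independent, since the 3p arms of mir-467a and mir-467d, for example, had the same counts (87 in TAMs and 294 in SMs). The share was 35.1% of 131 hairpins at 20 reads and 7 of 35 hairpins passed at 500 reads, a minimum that mir-130b does not reach. mir-301a, with 16 and 11 reads of its 5p arm, entered only at the minimum of 20, where its arms also differed by more than 1. mir-130a and mir-301b had too few 5p reads to enter at any of these minimums.

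**Figure D4:**
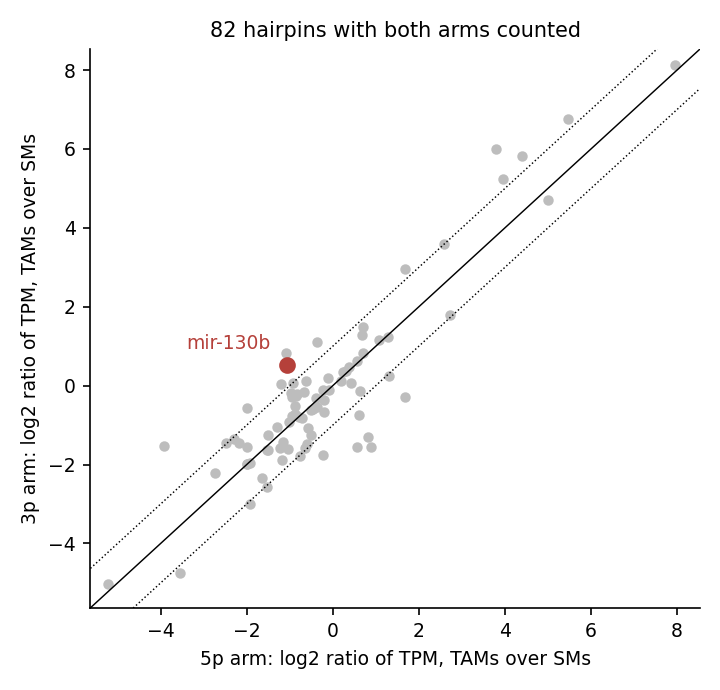
Log2 ratio of TPM, TAMs over SMs, of the 5p arm (x axis) and the 3p arm (y axis) of 82 hairpins with at least 100 reads per arm; the solid line marks equal ratios and the dotted lines a difference of 1. mir-130b (red) lies above the upper dotted line at −1.07 for the 5p arm and 0.51 for the 3p arm.

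The miRNAs nearest in level to each member, by distance in the plane of log2(TPM + 1) over the 2 libraries, differed between members. Nearest to miR-130a-3p was miR-320-3p, with 407 TPM in TAMs and 61.9 TPM in SMs (distance 0.40), followed by miR-127-3p and miR-181d-5p. Nearest to miR-301a-3p was miR-15a-5p, with 328 TPM and 727 TPM (distance 0.09), followed by miR-98-5p and miR-101a-3p. miR-27a-5p was nearest to miR-130b-3p, miR-664-3p to miR-301b-3p and miR-29a-5p to miR-130b-5p. The summed pool had no very near single miRNA; the nearest was miR-21a-3p at a distance of 0.57.

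Other miRNAs carry part of the seed at an offset. miR-19b-3p holds the stretch GTGCAA at bases 2 to 7 where the family has it at bases 3 to 8, and the seed of miR-148a-3p covers bases 1 to 7 of the family's guides. They are shown with their own seeds in capitals for comparison.
mmu-miR-19b-3p: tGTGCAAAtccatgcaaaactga
mmu-miR-148a-3p: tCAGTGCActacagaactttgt
Of 5 miRNAs of these offset families, 3 were at least 2-fold lower in TAMs and none was higher. Of all 264 miRNAs, 32.6% were lower and 24.2% higher. The median difference in log2(TPM + 1) of the 5 was −1.54, against −0.36 over all 264. These 5 are too few to set the offset families apart. miR-19b-3p stood at 625 TPM in TAMs against 1930 TPM in SMs, 3.09-fold lower (3.01 to 3.16). miR-148a-3p stood at 2309 TPM against 6961 TPM, 3.01-fold lower (2.98 to 3.05). Ratios of the rest were 0.342 for miR-19a-3p, 0.579 for miR-148b-3p and 0.959 for miR-152-3p, whose interval (0.888 to 1.04) included 1. Beside the pool of the miR-130/miR-301 guides at 1.02, the summed guides of miR-19a and miR-19b had a ratio of 0.326 (0.319 to 0.333). Those of miR-148a, miR-148b and miR-152 had one of 0.409 (0.405 to 0.413). RefSeq names 7 mature mouse miRNAs with the exact seed of the family; the 4 of these other than miR-130a-3p, miR-130b-3p and miR-301a-3p were not analysed here.

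Other lists hold miRNAs tied to the family by background knowledge. In pulmonary hypertension, the miR-130/miR-301 family is placed upstream of miR-322 and miR-503 (miR-424 and miR-503 in human) in endothelial cells and of miR-204 in smooth muscle cells, through Pparg. Of 5 such miRNAs 3 passed the filter, of which 1 was at least 2-fold higher in TAMs and 2 were lower, too few to read against the 24.2% higher and 32.6% lower of all miRNAs. The 2 lower ones were the arms of mir-322. miR-322-5p stood at 125 TPM in TAMs against 363 TPM in SMs, 2.89-fold lower (2.74 to 3.06), and miR-322-3p was 3.11-fold lower (2.38 to 4.11). The arms of mir-503 were under the filter. miR-503-5p had 11 reads in TAMs and 86 in SMs, 6.75-fold lower (3.59 to 14.0). miR-503-3p had 22 and 36 reads, 1.41-fold lower with an interval (0.809 to 2.52) that included 1. miR-204-5p had 667 reads in TAMs and 185 in SMs, and its ratio was 4.17 (3.54 to 4.94). The other list holds the miR-27 guides, which are also known to repress Pparg. miR-27b-3p stood at 17226 TPM in TAMs against 7707 TPM for SMs, and its ratio was 2.24 (2.22 to 2.25). For miR-27a-3p, 1911 TPM in TAMs against 2104 TPM in SMs gave 0.908 (0.893 to 0.923). Both miR-27 guides were thus at higher levels than the whole miR-130/miR-301 pool in each library.

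The libraries also differed in miRNAs that mark cell types. All 4 arms of mir-142, a miRNA of leukocytes in general, and of mir-223, a myeloid one, were at least 2-fold lower in TAMs. None was at 0. Their summed level was 7752 TPM against 34561 TPM in SMs. Most of that sum was miR-142-5p (5729 TPM against 21578 TPM), so it does not measure myeloid cells alone. miR-223-3p stood at 1413 TPM against 8326 TPM. The 7 epithelial markers were all at least 2-fold higher (1897 TPM against 284 TPM), and miR-205-5p had only 1 read in SMs. The 4 markers of red blood cells (1376 TPM against 6022 TPM) and the 2 of lymphocytes (1160 TPM against 3989 TPM) were lower. The red blood cell sum was mostly miR-486-5p (1343 TPM against 5355 TPM). In TAMs miR-451a was 17.8-fold lower, miR-144-3p 32.9-fold and miR-144-5p 37.6-fold. Of 5 stromal markers 4 passed the filter and 2 were at least 2-fold higher. Their sum (2617 TPM against 2452 TPM) was mostly miR-143-3p (2388 TPM against 2420 TPM), while miR-199a-3p had a ratio of 12.1 (10.6 to 13.9) and miR-199a-5p one of 6.04 (4.46 to 8.31). The arms of miR-126, which mark endothelial cells, summed to 406 TPM in TAMs against 343 TPM for SMs, and their ratio was 1.19 (1.14 to 1.23). For comparison, 24.2% of all 264 miRNAs passed 2-fold upward and 32.6% downward. Except for the 7 epithelial markers, each list had only 2 or 4 miRNAs past the filter, too few to read against those shares. Beside the 6.56 of miR-130a-3p, the ratios of the 7 epithelial markers were widely spread. They were 2.90 for miR-203-3p, 5.32 for miR-200c-3p, 6.85 (6.59 to 7.12) for miR-141-3p and 9.76 for miR-200a-3p. For miR-200b-3p the ratio was 9.89 (8.61 to 11.4), for miR-429-3p 15.0 and for miR-205-5p 444, from 1 read in SMs. The part of other cells in the values of miR-130a-3p, miR-301a-3p and the rest of the family was not tested.

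**Figure D5:**
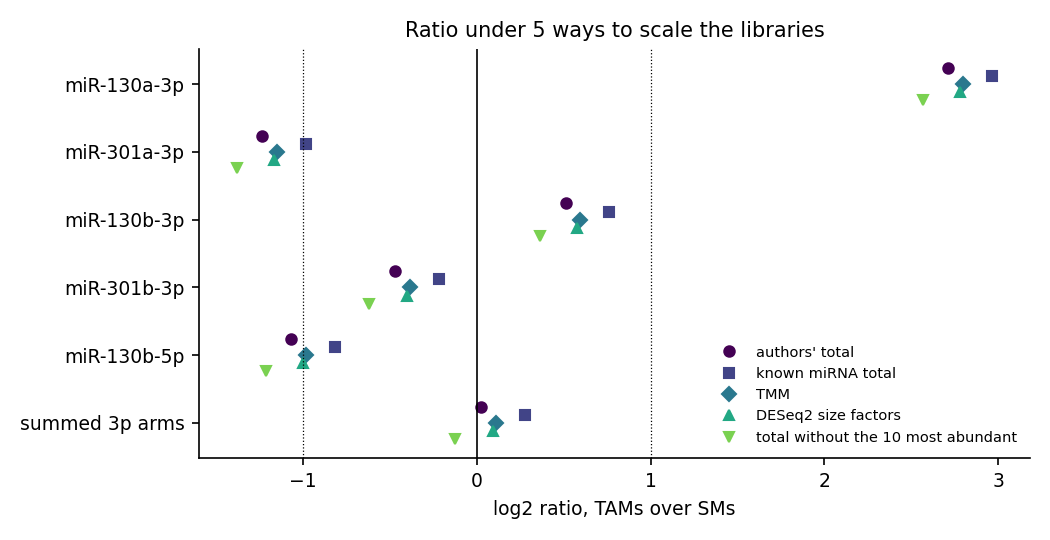
Log2 ratio, TAMs over SMs, of 5 members and of the summed 3p arms under 5 ways to scale the libraries (symbols; dotted lines, 2-fold). miR-130a-3p stays above 2-fold higher under all 5, miR-301a-3p is at 0.506 over the known miRNA total, and the summed 3p arms run from 0.919 to 1.21 as ratios.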

How the data were processed

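The 2 libraries, TAMs and SMs, were made by the authors with the TruSeq small RNA kit, starting at 3 µg of RNA. Bowtie2 is named in the submitters' processing notes without a version, and the sources used here name no genome build or miRBase release. The deposited table holds the raw read count of each known mature miRNA, to which its header says variants of ±2 bp were added, and TPM, which the authors computed as the count over a library total. Their columns of fold and p-value were not used, and 2 emptied lines were not analysed. Groups were taken from the sample titles.

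Ratios of TPM have exact conditional binomial intervals, shares have exact Clopper-Pearson intervals, levels have exact Poisson intervals, and ratios of ratios and odds ratios are conditional estimates with exact intervals (scipy 1.17.1 and pandas 2.3.3 under Python 3.11.15; figures with matplotlib 3.10.9). The confidence level was 95%. The limit of a miRNA without a read is 3 counts, 0.225 TPM in TAMs. A single read equals 0.0750 TPM (TAMs) or 0.0648 TPM (SMs). Counts of miRNAs used log2(TPM + 1), a minimum of 10 TPM in either library and 2-fold. Named miRNAs are all members, the 3 nearest in level to each member that passed the filter and to the pool, and members of the fixed lists. Members and lists were chosen with earlier results of these data known. Alternatives were other totals, TMM (edgeR 4.0.16), size factors (DESeq2 1.42.0; R 4.3.3), pseudocounts, filters, folds and other pools. The ratio calculation was tested on simulated data.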

Additional observations from a re-analysis of the deposited data

How the results depend on the processing

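No paired analysis was possible because neither group holds more than 1 library. Other library totals multiply every ratio by 1 factor, from 0.903 to 1.19, so they leave shares, arm ratios and the order of members as they are. Over the total of known miRNA reads, which shifts log2 ratios by 0.25, the ratio was 7.81 for miR-130a-3p, 1.70 for miR-130b-3p, 0.506 for miR-301a-3p, 0.858 for miR-301b-3p and 1.21 for the summed 3p arms. Without the 10 most abundant miRNAs in the total, a shift of −0.15, it was 5.92 for miR-130a-3p, 1.29 for miR-130b-3p, 0.384 for miR-301a-3p and 0.919 for the summed 3p arms. TMM gave 0.451 for miR-301a-3p and 1.08 for the summed 3p arms, and DESeq2 size factors gave 0.446 and 1.07. miR-130b-5p, with 73 reads in TAMs, stayed within its counting interval under these totals but not past 2-fold in all, from 0.431 to 0.569. Without miR-130a-3p the summed 3p arms had a ratio of 0.524. Sums of near-identical guides, chosen after the data were seen, gave 4.15 for miR-130a-3p with miR-130b-3p and 0.448 for miR-301a-3p with miR-301b-3p. Of the 264 miRNAs, 64 were at least 2-fold higher and 86 lower. At 4-fold these became 42 higher and 22 lower. Without the filter the counts were 102 higher and 115 lower, and at a minimum of 100 TPM 34 higher and 48 lower. The number of miRNAs examined changes with the filter, so these last counts are not out of 264 and do not compare as shares. In all, 35 alternative values lay within the counting interval or within 1.5 times the count, and 21 did not. Some of the 35 were fixed in advance, since taking every miRNA with the same bases 2 to 8 gave the same 4 guides. No direction of a member past 2-fold changed, and none could under other totals, whose factors ran only from 0.903 to 1.19. The depth limits the 5p arms other than miR-130b-5p, with 0 to 16 reads per library.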
